A study of Rattus norvegicus with 17 samples.

Results

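The comparison described here sets the hippocampal RNA-Seq libraries of Site 1 against those of Site 3, whose rats came from different vendors. Members were chosen by their titles: 5 libraries whose title starts with Site#1_Legacy and 6 whose title starts with Site#3_UAB, which makes 11 of the 17 expression libraries of the series. The study asked how far hippocampal tissue of untreated rats differs between laboratories that tried to match their conditions. Each library came from the hippocampi of both hemispheres of a single rat, and no rats were pooled.

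All rats were untreated males of the SAS Sprague Dawley stock, 8.0 to 8.3 weeks old when they reached the laboratory. Site 1 bought its rats from Charles River, housed them singly and dissected the tissue in saline. Site 3 bought its rats from Envigo, housed them in pairs and dissected in artificial cerebrospinal fluid. Over the study, rats were killed 18 to 27 days after arrival, and those of Site 3 were kept longest. Chow, at the breeder and at the laboratory, also differed between Site 1 and Site 3. Vendor, diet, housing, time in the laboratory and dissection buffer therefore separate the sites in the same way, and their parts in any difference below cannot be told apart. Site 2, which shared the vendor of Site 1, is used only to place the values found for Sites 1 and 3, and in an alternative fit.

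The hippocampus is a folded sheet of excitatory neurons in the CA fields and the dentate gyrus, with interneurons, astrocytes, oligodendrocytes and microglia among them. It borders the lateral ventricle, where the choroid plexus makes cerebrospinal fluid, and it is covered by meninges rich in collagen. Sprague Dawley is an outbred stock kept as separate colonies by each breeder, so rats of a site are not genetically identical.

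The deposited values are on a log2 scale, normalized between libraries by the authors, with 1 value per Ensembl gene and library. They hold no read counts, so the depth behind each library is not in the files, and the small number of rats per site limits precision. All p-values rest on rats. The spread of the lowest genes is compressed on this scale, so small differences of such genes say little about fold changes. Of 32494 listed genes, 9830 had a value of exactly 0 in each of the 17 libraries and were dropped, which left 22664 for testing. An approximate CPM, made by undoing the log and scaling each library to a sum of 1000000, averaged at least 1 for 13679 of these. The files name genes by identifier only. Symbols were attached to 1410 of the tested genes (6.22%) through some of the study's supplementary tables. These were mostly lists of genes with differing methylation, so the genes named below were not a random draw. The study's lists of differentially expressed genes were not read for symbols.

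In each site 1 library stood apart. The deviation of a library is given as the root mean square (RMS) of its distance from the site mean over genes of at least 1 CPM, corrected for the number of rats. Site 1 read 0.135, 0.105, 0.108, 0.123 and 0.176 log2 units in replicates 1 to 5, and Site 3 ran from 0.101 to 0.203 over 6 libraries. The high values belong to replicate 5 of Site 1 and replicate 1 of Site 3, which held 35.6% and 40.8% of the summed squared deviation of their sites. At least 0.5 log2 units above every other library of the same site lay 148 genes in the first of these and 107 in the second, against 0 to 12 in the other 9 libraries. The 0.5 limit was chosen after the data were seen. The bar chart of deviation by library shows both.

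**Figure D1:**
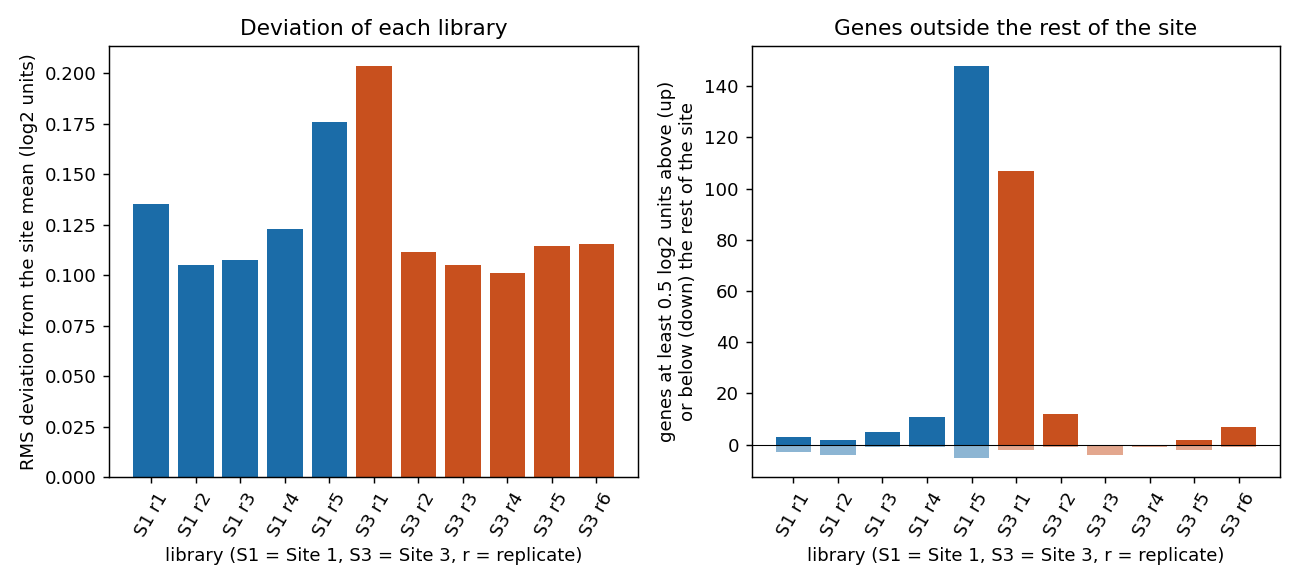
Left, RMS deviation of each of the 11 libraries from the mean of its site in log2 units (blue, Site 1; orange, Site 3). Right, number of genes at least 0.5 log2 units above (full colour, upward) or below (pale, downward) all other libraries of the site. Replicate 5 of Site 1 (148 genes above) and replicate 1 of Site 3 (107 genes above) stand out.

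Some of the genes that were high in these libraries could be named. Col1a1, the main chain of type I collagen made by fibroblasts, read 8.78, 8.78, 8.92, 8.90 and 10.95 at Site 1, and 8.53, 8.83 and 10.70 (lowest, median, highest) over the 6 libraries of Site 3. Fmod, a small proteoglycan that binds collagen, read 8.32, 8.21, 8.17, 8.17 and 9.98 at Site 1, and at Site 3 the lowest, median and highest were 8.07, 8.51 and 10.31. These are the only 2 of the 9 genes listed for meninges and fibroblasts that could be paired with an identifier. Both were highest in the libraries named above, and replicate 2 of Site 3 came next within its site, with Col1a1 at 10.07 and Fmod at 9.53. At Site 2, replicate 3 read highest for both, with Col1a1 at 10.64 and Fmod at 9.42. Slc22a6, an organic anion transporter, read 6.30, 6.42, 6.60, 6.61 and 7.91 at Site 1. Over Site 3 it ran from 6.44 through a median of 6.78 to 7.99, and the highest value of Site 2 was 8.06, in replicate 3. Col6a3, Col4a1 and Cdkn1c were also among the genes with a symbol that lay this far out in replicate 5 of Site 1. In bulk tissue, more cells of a type and more RNA per cell cannot be told apart.

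F5, the gene of coagulation factor V, gave the widest spread at Site 3 of any gene with a symbol and at least 1 CPM. It read 5.41, 5.75, 5.62, 5.53 and 5.64 at Site 1, and 5.39, 5.49 and 12.04 (lowest, median, highest) over Site 3. The high value is that of replicate 1, and the other 5 libraries of Site 3 lay close to those of Site 1. Aqp1, the water channel of the choroid plexus, read 5.37, 5.48, 5.60, 5.68 and 6.07 at Site 1 and 5.54, 5.63 and 7.74 over Site 3, again with replicate 1 highest. These are the only 2 of the 12 genes listed for choroid plexus and ependyma that could be paired with an identifier, and no other defining marker could be read. The difference of the site means, Site 3 minus Site 1, was 1.01 for F5 and 0.40 for Aqp1 with all libraries, and -0.07 and 0.06 without replicate 1 of Site 3. Neither gene passed the test between the sites. Itgb6, Wdr63 and Cfap52 were also at least 0.5 log2 units higher in replicate 1 than elsewhere at Site 3.

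Between the sites, 23 genes differed at an adjusted p under 0.05 (0.101% of those tested), by limma with Benjamini-Hochberg adjustment over all 22664 genes; these are called DEGs. At Site 3, 11 were higher (0.0485%) and 12 were lower (0.0529%). The higher ones had a median log2 difference of 0.38, from 0.04 to 0.79, and the lower ones had a median of -0.44, from -0.31 to -0.75. None reached a difference of 1 log2 unit, and 9 reached 0.5. Over all tested genes the median absolute difference was 0.0228, and it was 0.0432 over genes of at least 1 CPM. Of the 23, 20 had a mean of at least 1 CPM (0.146% of such genes). After quantile normalization 22 genes passed, 8 higher and 14 lower, and a fit without the mean-variance trend gave the same split.

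**Figure D2:**
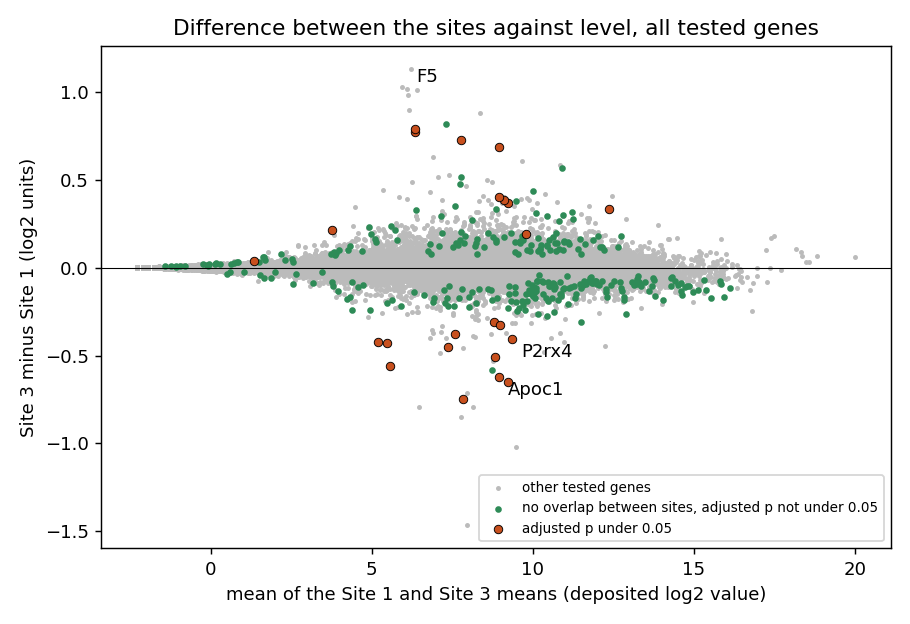
Difference of the site means (Site 3 minus Site 1, log2 units) against their average (deposited log2 value) for the 22664 tested genes. Orange points are the 23 DEGs, green points are 289 other genes whose libraries do not overlap between the sites, and F5 sits near the top through 1 library.

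The count rests on few rats. Without both libraries that stand apart it was 17, of which 10 were among the 23. Leaving out replicate 5 of Site 1 alone gave 30 genes, and leaving out replicate 1 of Site 3 alone gave 12. Leaving out replicates 2, 3, 4, 5 and 6 of Site 3 one at a time gave 13, 9, 12, 15 and 14. Of the 23 genes, 9 passed whichever of the 11 libraries was left out, 13 passed in some of these settings and 1 in none. With the replicate number as a block, limma gave 0 genes after adjustment. At an unadjusted p under 0.05 it gave 1324, against 1851 (8.17%) with all 11 libraries and no block. In the blocked fit, replicate 6 of Site 3 has no partner and adds nothing to the differences. Without that library and with no block, limma gave 14 genes after adjustment and 1649 at an unadjusted p under 0.05. The same number at another site is a different rat, so the number pairs nothing by design.

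Only 2 of the 23 DEGs were given a symbol, Apoc1 and P2rx4, and both fell at Site 3. Apoc1 (ENSRNOG00000018426) encodes apolipoprotein C-I, a small protein of lipoprotein particles that in brain is made mainly by astrocytes. It read 9.23, 9.25, 9.06, 9.43 and 9.35 in the libraries of Site 1, and 8.40, 8.64 and 8.84 (lowest, median, highest) in the 6 libraries of Site 3. Every rat of Site 3 lay below every rat of Site 1, with a gap of 0.215 log2 units between the nearest pair. The means were 9.26 ± 0.14 (SD, n = 5) and 8.64 ± 0.16 (SD, n = 6), a log2 difference of -0.62 (SE 0.08, limma with Benjamini-Hochberg adjusted p = 0.0208). Without both libraries that stand apart the difference was -0.55 and the adjusted p by limma was 0.0677. Over 21 other settings the adjusted p by limma with Benjamini-Hochberg ran from 0.00335 to 0.187. It was not under 0.05 when replicate 2 of Site 1 (0.0537), replicate 3 (0.0792), replicate 4 (0.0589) or replicate 5 (0.0595) of Site 3 was left out.

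P2rx4 (ENSRNOG00000001300) encodes a P2X receptor, a cation channel that extracellular ATP opens and that neurons and microglia carry. It read 9.47, 9.46, 9.48, 9.82 and 9.54 at Site 1 and 9.06, 9.17 and 9.22 (lowest, median, highest) at Site 3. The sites did not overlap, and replicate 4 of Site 1 lay well above the other rats of its site. The means were 9.55 ± 0.15 (SD, n = 5) and 9.15 ± 0.06 (SD, n = 6), a log2 difference of -0.41 (SE 0.06, limma with Benjamini-Hochberg adjusted p = 0.0442). This call is near the threshold. It was lost when any 1 library other than replicate 4 of Site 1 was left out, with adjusted p values by limma up to 0.135, and without replicate 4 of Site 1 the difference was -0.34 and the adjusted p 0.00911. With both libraries that stand apart removed, the difference was -0.41 and the adjusted p by limma was 0.134. Over 21 other settings the adjusted p ran from 0.00800 to 0.566, the last with the replicate number as a block.

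Symbols came mostly from lists of genes with differing methylation. That both named DEGs are on such lists follows from how symbols were attached, and nothing is read from it. The promoters of these DEGs are printed here, as a description only, as RefSeq gives them on the GRCr8 build. Each is the 300 bases around the start site, read 5′ to 3′ on the gene's own strand, which is the minus strand for both. The Apoc1 window is chr1:88478256-88478555 and the P2rx4 window is chr12:39523040-39523339. RefSeq lists a second start for Apoc1 whose window, chr1:88478171-88478470, overlaps this one. Capitals mark matches to the GC box GGGCGG, the TATA box TATAAA, the CCAAT box CCAAT or the ETS core CCGGAA, each searched on both strands.
Apoc1: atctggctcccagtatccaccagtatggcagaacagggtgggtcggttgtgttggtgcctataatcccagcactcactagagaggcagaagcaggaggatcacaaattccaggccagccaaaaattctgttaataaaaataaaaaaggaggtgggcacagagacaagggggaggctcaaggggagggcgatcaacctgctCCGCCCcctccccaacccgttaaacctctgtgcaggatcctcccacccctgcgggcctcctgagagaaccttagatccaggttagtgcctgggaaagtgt
P2rx4: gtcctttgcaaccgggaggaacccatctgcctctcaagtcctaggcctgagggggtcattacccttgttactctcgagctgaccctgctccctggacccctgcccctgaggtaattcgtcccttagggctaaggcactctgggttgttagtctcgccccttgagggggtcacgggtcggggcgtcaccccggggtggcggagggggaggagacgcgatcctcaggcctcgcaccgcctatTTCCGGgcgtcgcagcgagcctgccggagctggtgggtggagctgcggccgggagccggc

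The Apoc1 window printed holds 1 GC box, read on the opposite strand, and the P2rx4 window holds 1 ETS core, also on the opposite strand. The window of the second Apoc1 start holds 1 GC box and 1 CCAAT box. No motif searched is found in both genes. Of 33469 promoters of this length, 33.1% hold a GC box, 14.2% a TATA box, 37.5% a CCAAT box and 15% an ETS core. A match describes letters only.

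The remaining 21 DEGs have no symbol in the parts of the supplement that were read for symbols. The 2 largest rises and the 2 largest falls among them are given by identifier. ENSRNOG00000042985 read 5.89, 5.80, 5.88, 6.28 and 5.93 at Site 1 and 6.54, 6.77 and 6.84 (lowest, median, highest) at Site 3. ENSRNOG00000027971 read 5.86, 6.08, 6.03, 5.89 and 5.88 at Site 1 and 6.53, 6.74 and 6.81 at Site 3. For both, all 6 rats of Site 3 lay above all 5 rats of Site 1. The log2 differences were 0.79 (SE 0.09, limma with Benjamini-Hochberg adjusted p = 0.00365) and 0.77 (SE 0.06, adjusted p = 0.000298). Both passed in each of the 11 settings that left out a library.

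ENSRNOG00000022595 read 9.60, 9.61, 9.46, 9.65 and 9.46 at Site 1 and 8.77, 8.93 and 8.97 (lowest, median, highest) at Site 3. Its gap between the nearest rats of the 2 sites was 0.494 log2 units, wider than the range within either site. The log2 difference was -0.65 (SE 0.05, limma with Benjamini-Hochberg adjusted p = 0.000298), and it too passed in each of the 11 settings. ENSRNOG00000013928 read 8.19, 8.14, 8.54, 7.86 and 8.24 at Site 1 and 7.30, 7.44 and 7.66 at Site 3. It had the largest fall, -0.75 (SE 0.11, limma with Benjamini-Hochberg adjusted p = 0.0298), and also the widest scatter among rats of the DEGs at Site 1, with an SD of 0.24. It passed in 3 of the 11 settings that left out a library, and with the replicate number as a block its adjusted p by limma was 0.411.

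**Figure D3:**
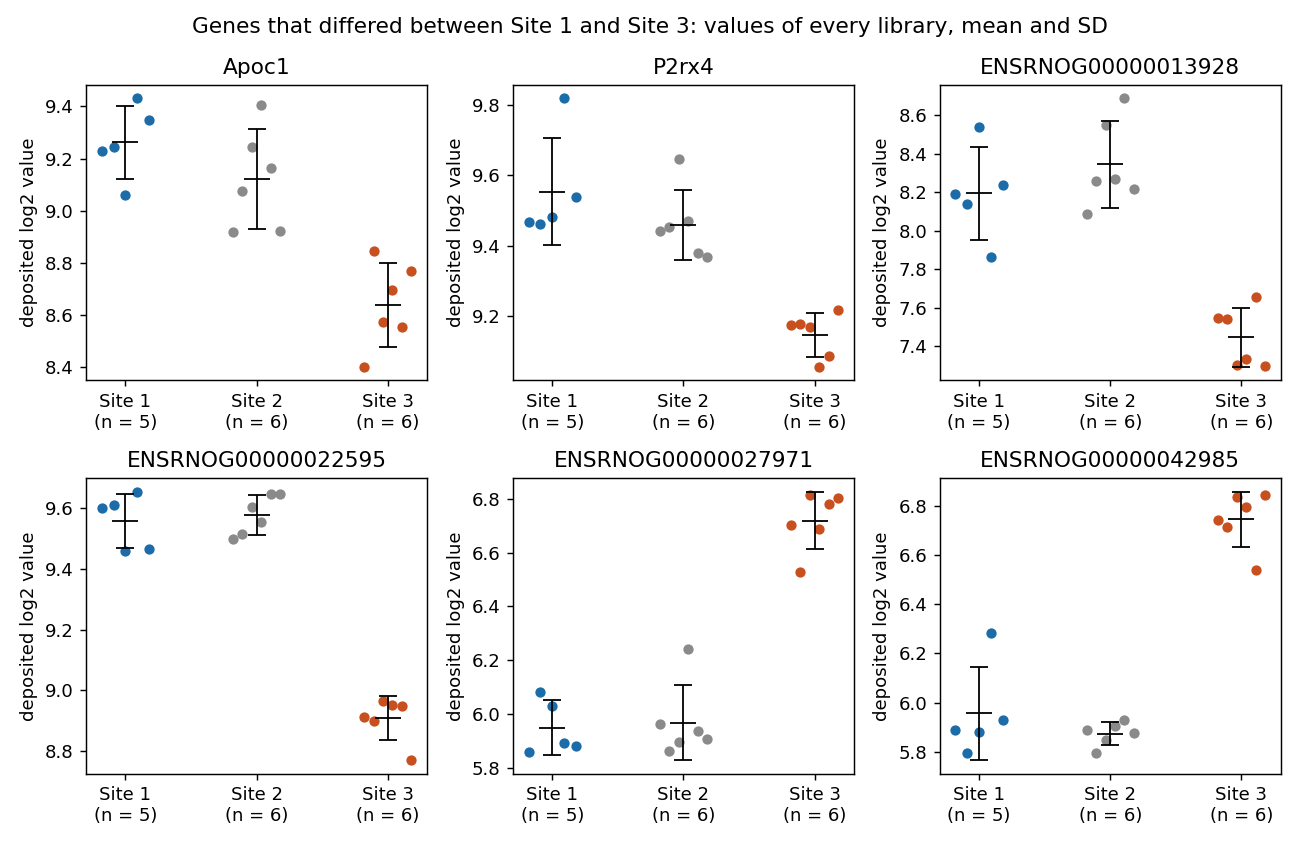
Deposited log2 value of each library (points), with mean and SD (bars), for Apoc1, P2rx4 and the 4 DEGs given by identifier, with 5 libraries of Site 1 and 6 each of Sites 2 and 3. The libraries of Site 3 lie apart from those of Site 1 in each panel.

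Site 2 used the vendor of Site 1, and the dot plots by site give its values. The comparisons of Site 2 with either site share libraries with the one above, so values are set side by side and nothing is read from their likeness. Apoc1 had a mean of 9.12 ± 0.19 (SD, n = 6) at Site 2, from 8.92 to 9.41, which is -0.14 from Site 1, and Site 3 was -0.48 from Site 2. P2rx4 had a mean of 9.46 ± 0.10 (SD, n = 6), from 9.37 to 9.65, which is -0.09 from Site 1, and Site 3 was -0.31 from Site 2. Over the 23 DEGs the median absolute difference was 0.43 between Sites 1 and 3, 0.0652 between Sites 1 and 2 and 0.39 between Sites 2 and 3. Limma gave 0 genes (0%) between Sites 1 and 2 after Benjamini-Hochberg adjustment, with 1527 (6.74%) at an unadjusted p under 0.05, and 239 (1.05%) between Sites 2 and 3.

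For 312 genes (1.38% of those tested) the sites had no overlap, 133 being higher (0.587%) and 179 lower (0.79%) at Site 3. After median centring there were 211, 67 higher and 144 lower, and after quantile normalization 272, 107 higher and 165 lower. All 23 DEGs are among them, and since the same contrast chose them nothing is read from this. The other 289 had a median gap of 0.0149 log2 units between the nearest libraries, with a largest of 0.225. The gap of the DEGs ran from 0.0205 to 0.542 with a median of 0.215. Leaving out libraries can only raise this count, which was 774 without both libraries that stand apart. It was 552, 592 and 580 without replicate 1, 4 or 5 of Site 1 and 472 without replicate 2 of Site 3.

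Among genes with a symbol, 14 did not overlap (0.993%, beside 1.38% of all tested genes), 8 higher and 6 lower at Site 3, and those named here were chosen after their values were seen. Vps8, a subunit of a complex that tethers endosomes, read 11.32, 11.47, 11.43, 11.36 and 11.39 at Site 1 and 11.17, 11.22 and 11.28 (lowest, median, highest) at Site 3. Its log2 difference of -0.17 (SE 0.03) was the nearest to the threshold of all genes with a symbol that missed it (limma with Benjamini-Hochberg adjusted p = 0.124). Celsr1, a cadherin of planar cell polarity, came next at 0.25 (limma, Benjamini-Hochberg adjusted p = 0.131), followed by AABR07001591.1 at 0.22 (0.164). Celsr1 read 8.85, 8.88, 8.93, 8.97 and 8.81 at Site 1 and 8.97, 9.14 and 9.27 at Site 3, where the lowest rat just overlapped. The other non-overlapping genes include Mrps27 of the mitochondrial ribosome (-0.11), the myosin gene Myo10 (-0.11), the histone demethylase gene Kdm2b (0.10), Gpr89b (0.09), Zfp592 (0.10), Zcchc14 (0.16), Tacc1 (0.12), Tnrc18 (0.08) and Sdr42e1 (-0.20), none of which passed.

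Cell type markers were read from the study's own marker table of 20 genes, all of them paired and tested. None passed limma's test after Benjamini-Hochberg adjustment, and 5 had an unadjusted p under 0.05, where 8.17% of all tested genes did. Their median log2 difference was 0.0323, with 13 above 0 and 7 below, beside a median of 0.000204 over all tested genes, of which 11979 were above 0 and 10685 below. The median of the table was 0.00927 without both libraries that stand apart. With 1 library left out it was lowest at 0.0113 (replicate 5 of Site 3), and it was 0.0191, 0.0183 and 0.0156 without replicates 1, 2 and 5 of Site 1 and 0.0200 without replicate 1 of Site 3. The 6 microglial genes Tmem119, C1qa, Csf1r, P2ry13, Selplg and Pycard differed by 0.04 to 0.24 with a median of 0.0746. All were above 0, also after quantile normalization and median centring, though P2ry13 was at -0.02 without both libraries that stand apart and at -0.0011 without replicate 5 of Site 1 alone. Tmem119, a membrane protein by which microglia are told from other macrophages, read 9.08, 9.27, 9.42, 9.36 and 9.17 at Site 1 and 9.28, 9.50 and 9.74 (lowest, median, highest) at Site 3. These ranges overlap, and its difference of 0.24 (SE 0.08) did not pass (limma with Benjamini-Hochberg adjusted p = 0.402).

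Of the neuronal genes of the table, Pfkp, an enzyme of glycolysis, was at -0.15, Gad2, which makes GABA, at -0.14 and Grin1, a subunit of the NMDA receptor, at -0.05. Pfkp read 13.72, 13.79, 13.88, 13.80 and 13.78 at Site 1 and 13.58, 13.62 and 13.77 at Site 3, a log2 difference of -0.15 (SE 0.04, limma with Benjamini-Hochberg adjusted p = 0.263). Among astrocyte genes the signs were mixed. Aldh1l1, an enzyme of folate metabolism, was at -0.18 (SE 0.05, limma, Benjamini-Hochberg adjusted p = 0.285) and Gja1, a gap junction protein, at 0.17 (SE 0.07, adjusted p = 0.569). Gfap, the intermediate filament of astrocytes, was at 0.04, Slc1a3, a glutamate transporter, at -0.01 (0.02 after quantile normalization), and Pdgfrb, which the table lists for astrocytes though it is better known from pericytes, at -0.10 (-0.02 without replicate 5 of Site 1). The oligodendrocyte gene Cers2 was at 0.03, and the widely expressed genes Cyfip1, Rac1, Snx6 and Actr3 lay between 0.01 and 0.06.

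**Figure D4:**
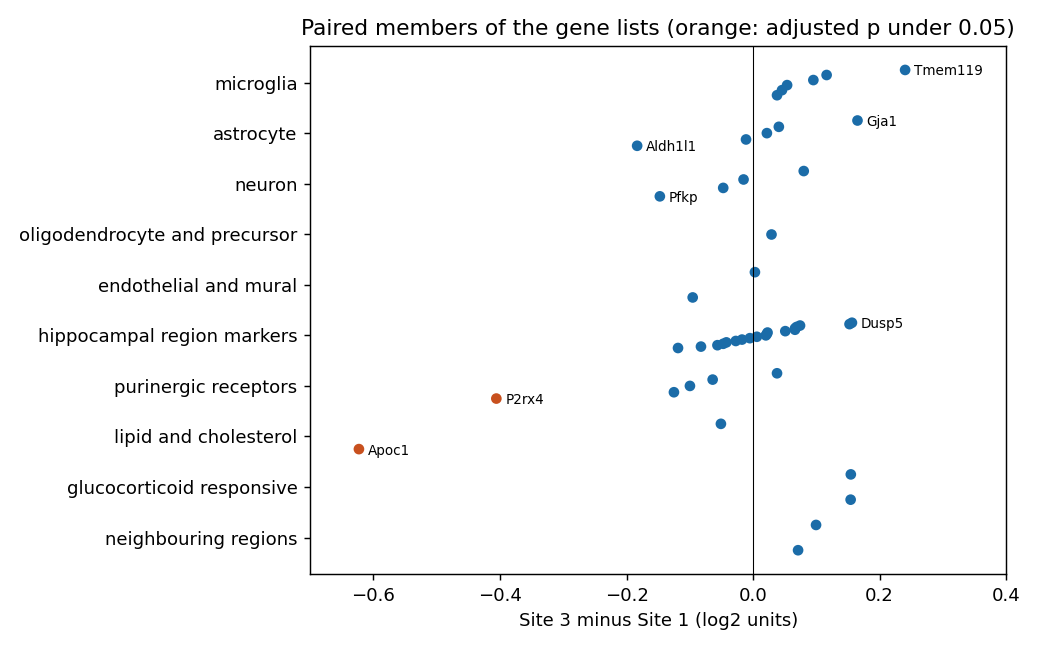
Difference of the site means (Site 3 minus Site 1, log2 units) for the members of the gene lists shown that could be paired with an identifier, 1 point per gene. Orange points, Apoc1 and P2rx4, are the DEGs, and the members shown in blue did not pass.

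The other lists could be paired only in part and are given gene by gene. Of 17 purinergic receptors, 5 were paired, and P2rx4 alone passed, where 0.101% of all tested genes did; a single gene says nothing of the list. P2rx5 (-0.10) and P2rx7 (-0.06), also ATP-gated channels, and P2ry2 (-0.13) and P2ry13 (0.04), which act through G proteins, did not. P2ry2 read 6.66, 6.61, 6.77, 6.74 and 6.79 at Site 1 and 6.45, 6.58 and 6.75 (lowest, median, highest) at Site 3, so its sites overlap. Of 15 lipid and cholesterol genes, Apoc1 and Srebf1 were paired, and Srebf1, a transcription factor of lipid synthesis, was at -0.05. Among receptor genes for glutamate and GABA, Grin1 (-0.05), Grin2a (0.08), Grin2b (0.00) and Gabbr2 (-0.01) did not pass. Quantile normalization turned the sign of Grin2b and Gabbr2. Over all settings run, Grin2a ranged from -0.03 to 0.18 and Grin1 from -0.09 to -0.01. Grin2b ran from -0.06 to 0.08 and Gabbr2 from -0.04 to 0.02.

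Of the 187 region markers of the study, 19 were paired and 0 passed, where 0.101% of all tested genes did, and the differences ran from -0.12 to 0.16. The 4 paired markers of CA2 were Dusp5 (0.16), Rgs14 (0.15), Gpr12 (-0.04) and Cacng5 (-0.02). Leaving out 1 library moved Rgs14 to as low as 0.07 (without replicate 3 of Site 1) or as high as 0.27 (without replicate 1 of Site 1). The 8 paired markers of the dentate gyrus ran from -0.12 for Slc29a4 to 0.07 for Pde7b. Dusp5, a phosphatase of ERK kinases, read 9.03, 9.00, 8.89, 9.16 and 9.16 at Site 1 and 9.09, 9.22 and 9.29 at Site 3, and the sites overlap. Of markers of neighbouring regions, Tcf7l2 (0.10) and Cux2 (0.07) were paired. Over all settings run, Tcf7l2 ranged from 0.07 to 0.16 and Cux2 from 0.01 to 0.17. The paired genes of the remaining cell type lists, other than those above, were Sox9 (0.02) for astrocytes, Rbfox3 (-0.02) for neurons and Flt1 (0.00) for endothelium. Blood markers had 0 paired genes.

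Lists of genes that respond to glucocorticoids, neuronal activity or time of day were paired for few members. Of 10 glucocorticoid-responsive genes, Sgk1, a kinase, and Errfi1, an inhibitor of EGF receptor signalling, were paired, both at 0.15. Sgk1 read 11.79, 11.63, 11.39, 11.48 and 11.61 at Site 1 and 11.58, 11.65 and 12.15 at Site 3, with replicate 1 of Site 3 highest. Without that library the difference of Sgk1 was 0.07. The immediate-early gene Dusp1 was at 0.10, the clock output gene Hlf at 0.04 and Gadd45b, of the DNA methylation list, at -0.02. Without replicate 5 of Site 1, Hlf was at -0.04 and Gadd45b at 0.02, and over all settings run Dusp1 ranged from 0.05 (without replicate 5 of Site 3) to 0.13. None of these passed, and 1 library is enough to change the size or sign of such small differences. The lists for heat shock, hypoxia and glycolysis, interferon and antigen presentation, and histone deacetylation had 0 paired genes.

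The spread between rats of a site was small for most genes. Over genes of at least 1 CPM, the median SD was 0.0907 log2 units at Site 1 and 0.0745 at Site 3, and 35.7% of these genes (4883) had the larger SD at Site 3. An SD of at least 0.5 was found for 63 genes at Site 1 and 62 at Site 3, the latter 37 without replicate 1. No count without replicate 5 of Site 1 is given, so the 37 is not set against the 63. Library deviation averaged 0.129 ± 0.0287 (SD, n = 5) over Site 1 and 0.125 ± 0.0387 (SD, n = 6) over Site 3, a difference of -0.00419 (two-sided exact permutation test over 462 assignments, p = 0.797). Without both libraries that stand apart the difference was -0.00893 (exact permutation test, p = 0.310). Without replicate 1 of Site 3 alone, the mean of Site 3 was 0.104 and the exact permutation p was 0.0635 over 252 assignments. Without replicate 5 of Site 1 alone the difference was 0.0125 (exact permutation test, p = 0.767), and it was 0.00142 and 0.00275 without replicates 3 and 4 of Site 3, so its sign is not settled. Over the 500 most variable genes the difference was 0.0780 (exact permutation test, p = 0.656).

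**Figure D5:**
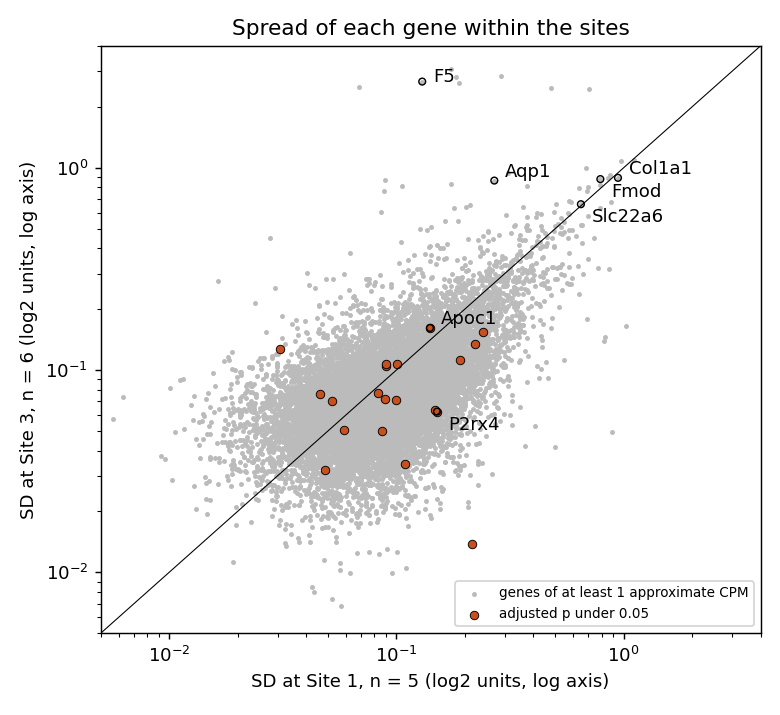
SD among the 6 rats of Site 3 against SD among the 5 of Site 1, both in log2 units on log axes, for genes of at least 1 CPM. Orange points are DEGs, and the line marks equal SDs. F5 and Aqp1 lie far above it through replicate 1 of Site 3, while Col1a1, Fmod and Slc22a6 have a large SD at both sites.

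The DEGs were chosen by a test that weighs the difference against the spread between rats, so their spread is given as a description only. Their median SD was 0.0903 at Site 1, from 0.0056 to 0.241, and 0.0713 at Site 3, from 0.0104 to 0.162. It was larger at Site 1 for 14 of the 23 and larger at Site 3 for 9. Their absolute difference was 3.65 to 8.10 times the pooled SD, with a median of 4.65, where genes of at least 1 CPM had a median of 0.488. The genes with a symbol that had the largest SD were Col1a1, Fmod and Slc22a6 at Site 1 and F5, Col1a1 and Fmod at Site 3.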

How the data were processed

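RNA-Seq of rat hippocampus was used, 1 library per rat, grouped by the site and replicate in the labels. The authors trimmed reads with Trimmomatic, aligned them with HISAT2 to rn6 and counted them with featureCounts, and they name DESeq2; versions are not stated. Their deposited values are log2, normalized by a step they do not name. Members and lists were chosen with earlier results of these data known. Genes at exactly 0 in all 17 libraries were left out. Each pair of sites was fitted with limma 3.58.1 in R 4.3.3 (two-sided; lmFit, then eBayes with a trend of variance on the mean) on the deposited values, with Benjamini-Hochberg adjustment and a threshold of 0.05. The code was tested on simulated data. Library deviations were compared by an exact permutation test. Named were all DEGs with a symbol, the 2 largest rises and falls without one, list members that are DEGs, the highest member of each list, the 3 genes with the largest SD at each site and the 3 just outside the threshold. Other list members, the non-overlapping genes and the genes of the libraries that stand apart were named after their values were seen. A list was described as a whole where at least 80% of its genes were paired; 14 symbols with several identifiers were left out. Alternatives were all 17 libraries in one fit, array weights, robust estimation, no trend, quantile normalization, median centring, a filter at 1 CPM, no filter, the replicate number as a block and each library left out; removing both libraries that stand apart was added after the data were seen. Tables and figures were made with matplotlib 3.10.9, scipy 1.17.1, pandas 2.3.3 and numpy 2.4.6 under Python 3.11.15.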

Additional observations from a re-analysis of the deposited data

Results flagged for a closer look

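In each group of 5 or 6 libraries, the highest and the lowest value were compared with the rest by Dixon's criterion. This covered the library deviation, the paired list members, the DEGs described and the genes named for their test, overlap or SD. Col6a3, Col4a1, Cdkn1c, Itgb6, Wdr63 and Cfap52, named for lying far out in a library that stands apart, were not included. Of 162 groups looked at, 15 held a sample far from the others, and chance flags about 1 in 20 groups. Replicate 1 of Site 3 accounted for 4 of them, with an RMS deviation of 0.203, F5 at 12.04, Aqp1 at 7.74 and Errfi1 at 11.16. Replicate 5 of Site 1 was far above its site for Col1a1 (10.95), Fmod (9.98) and Slc22a6 (7.91) and far below it for Snx6 (10.55). Col1a1, Fmod, Slc22a6 and F5 are named partly for their large SD, so an outlying sample is likely for them by choice.

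Replicate 4 of Site 1 was far from its site for P2rx4 (9.82), ENSRNOG00000042985 (6.28) and Tcf7l2 (8.13). At Site 3, the others were Aldh1l1 in replicate 2 (10.10), Gpr12 in replicate 3 (9.88), Tacc1 in replicate 5 (12.83) and ENSRNOG00000022595 in replicate 6 (8.77). The causes were not tested.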

How the results depend on the processing

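The 23 DEGs became 36 with all 17 libraries in one limma fit, where 22 of the 23 passed. They became 0 with the replicate number as a block, a pairing the design does not have. That fit leaves replicate 6 of Site 3 without a partner, and in it 1324 genes had an unadjusted p under 0.05 by limma. Leaving out 1 library gave 9 to 30 DEGs. The lowest counts came without a rat of Site 3: 12, 13, 9, 12, 15 and 14 for replicates 1 to 6. Array weights gave 34, median centring 30, robust estimation 23, quantile normalization 22, a fit without the trend 22, a filter at 1 CPM 24, no filter 18 and removal of both libraries that stand apart 17. Genes without overlap numbered 774 without those libraries and 382 to 592 with 1 library left out, which fewer samples alone can raise. The difference in library deviation ran from -0.0256 to 0.0125 with 1 library left out and was 0.0780 over the 500 most variable genes, so its sign turned in both; it did not pass in any setting run. No named gene that passed changed direction in these settings. Apoc1 missed the threshold in 7 of 21 settings, P2rx4 in 14 and ENSRNOG00000013928 in 12, while ENSRNOG00000022595, ENSRNOG00000027971 and ENSRNOG00000042985 missed it in 1, the block. The cause was not tested. The files give no depth for single libraries, so its limit on these values cannot be given.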
